A study of Mus musculus with 12 samples.

Results

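The genes described here encode the proteins of the cytosolic ribosome. Members were the protein-coding genes whose GENCODE M21 symbol is Rpl or Rps with a number, with an optional a, x, y or l ending, together with Rplp0, Rplp1, Rplp2 and Rpsa; kinase genes and predicted names were left out. The rule found 83 members among 22195 genes, 51 of the large subunit and 32 of the small subunit, and it used no measured value. The libraries came from subcutaneous tumours that YUMM2.1 cells, a mouse melanoma line, formed in immunocompetent C57BL/6J mice. Mice received both antibodies (combination), an antibody to B7-H3 (anti-B7-H3), an antibody to PD1 (anti-PD1), or isotype control IgG, starting at a tumour volume between 20 and 50 mm3. Each of these 4 groups has 3 libraries of total RNA depleted of ribosomal RNA, with an integrity number of at least 7.0 and at least 500 ng of input. The series set out to describe the immune infiltrate of tumours under each treatment. The labels give no age, and they do not say whether each library is a separate mouse.

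Ribosomal proteins are needed in matched amounts, their genes are usually expressed in a coordinated way, and their mRNAs make up a large part of a growing cell's mRNA. Most of these mRNAs begin with a terminal oligopyrimidine tract, a run of C and T bases that follows a C at the transcription start, through which mTORC1 and the RNA-binding protein LARP1 control their translation. Members that are made in excess of assembled ribosomes, such as RPL5 and RPL11, bind MDM2 and so link ribosome assembly to p53.

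Such a tract was found at the RefSeq start of a minority of members, though more often than in all genes. Shown here are 6 members that carry it, with 10 bases before and 20 bases from the RefSeq start on GRCm38.p6. Capitals mark the tract, the run of C and T that begins with a C at the start site. Rplp2, Rps6, Rps21 and Rps27 are shown because results below turn on them, and Rpl15 and Rpl35 because their tracts were the longest.
Rplp2 (chr7:141447641-141447670, plus strand): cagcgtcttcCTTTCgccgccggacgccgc
Rpl15 (chr14:18270967-18270996, minus strand): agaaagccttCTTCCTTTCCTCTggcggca
Rpl35 (chr2:39005112-39005141, minus strand): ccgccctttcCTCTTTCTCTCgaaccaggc
Rps6 (chr4:86857348-86857377, minus strand): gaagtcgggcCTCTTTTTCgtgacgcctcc
Rps21 (chr2:180257369-180257398, plus strand): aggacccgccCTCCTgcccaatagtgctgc
Rps27 (chr3:90213629-90213658, minus strand): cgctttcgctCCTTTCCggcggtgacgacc

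RefSeq start windows were matched for 63 of the 83 members. A tract of at least 5 bases at the annotated start was present in 13 of these 63 members (20.6%), against 3.01% of 27025 genes with a window. None of 69 mitochondrial ribosomal protein genes with a window had one. A run of at least 8 C or T bases that began with a C within 10 bases of the start was found in 34.9% of members and 8.32% of all genes. Within 250 bases before to 50 after the start, searched on both strands, the ETS-like motif CCGGAAG was found in 39.7% of members, against 9.13% of all genes. The SP1-like motif GGGCGG was found in 60.3% of members, against 35.8% of all genes. The YY1-like motif AAGATGGC was found in 7.94% of members, against 2.90% of all genes, and TATAAA in 9.52%, against 14.2%. Among the 69 mitochondrial ribosomal protein genes, the ETS-like motif was found in 36.2%, the SP1-like motif in 49.3% and the YY1-like motif in 17.4%. The ETS-like motif ends in the letters AAG with which the YY1-like motif begins, so 1 stretch can hold both, and a match describes only the letters of the window. The 13 members with a tract at the start and the 47 tested members without one were set side by side for anti-B7-H3 against isotype control. Their median log2 fold changes were 1.06 and 1.16, over ranges of 0.68 to 2.06 and 0.30 to 1.87. The run within 10 bases of the start was found in 22 members, so some counted as without a tract have such a run beside the annotated start.

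Several facts about the libraries bear on the values that follow. Reads of 16 satellite-like predicted genes, each holding more than 0.1% of all reads, took 30.6% to 34.5% of matched reads in combination libraries. They took 0.212% to 0.370% in anti-B7-H3, 70.4% to 75.8% with anti-PD1 and 91.7% to 94.7% in isotype control libraries. Reads outside them numbered 2881231 to 3468096 in combination, 3564966 to 3913540 in anti-B7-H3, 2393250 to 2662881 with anti-PD1 and 1134827 to 1288459 with isotype control libraries. Genes of smell and taste receptors, which tumours should not use, averaged 0.721, 0.0972, 5.37 and 7.49 reads per kilobase in the same order of groups, and this rate was taken as the background. At that rate, background made up 2.10% of large subunit reads and 1.75% of small subunit reads in isotype control libraries, and under 1% of either in every other group. These percentages count each member once. Pseudogene copies, treated below, are left out of them, so background could be larger for members with many copies. Libraries of anti-B7-H3 and of combination differed little more than by read sampling, those of anti-PD1 somewhat more and those of isotype control most. The median chi-square per gene was 0.544 to 0.577 in anti-B7-H3 and combination, 0.617 to 0.633 with anti-PD1 and 0.654 to 0.898 in isotype control. Sampling alone gives 0.455. The p-values therefore measure a spread between libraries that may be technical.

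**Figure D1:**
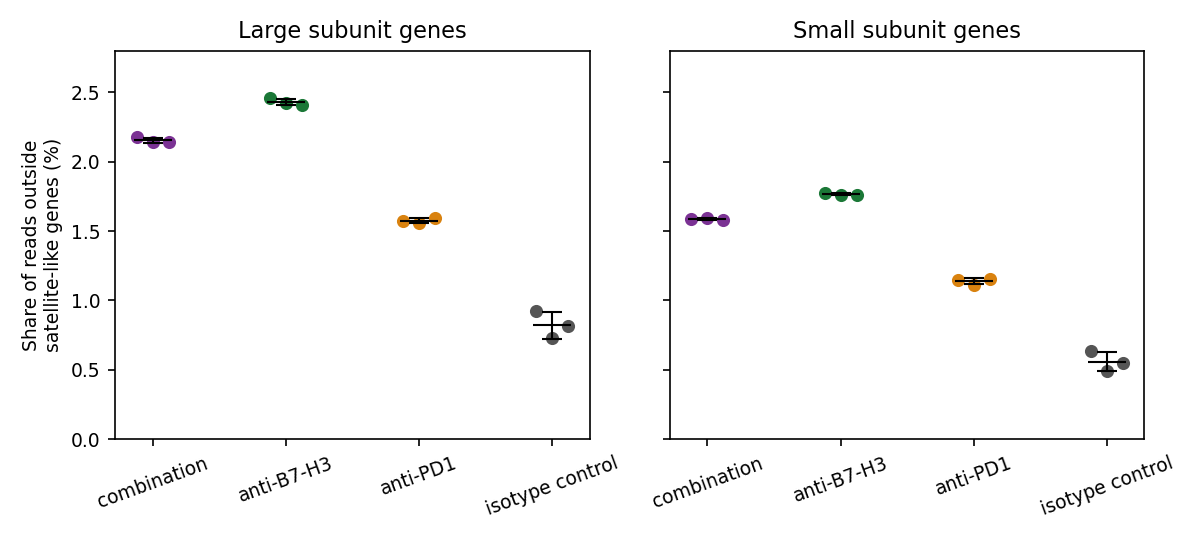
Share of reads outside satellite-like genes (percent) that large subunit genes (left) and small subunit genes (right) held in each library, by group; points are libraries, and bars are the mean ± SD of 3 libraries. The groups do not overlap in either panel, with anti-B7-H3 highest, near 2.43% and 1.77%, and isotype control lowest, near 0.823% and 0.559%.

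Ribosomal protein genes held their largest share of reads in tumours given anti-B7-H3 alone, less in the combination, less again under anti-PD1 and least under isotype control. Large subunit genes held 2.17%, 2.14% and 2.14% of reads outside satellite-like genes in combination libraries, 2.46%, 2.42% and 2.41% in anti-B7-H3, 1.57%, 1.56% and 1.59% with anti-PD1 and 0.925%, 0.730% and 0.813% in isotype control libraries. Small subunit genes held 1.59%, 1.60% and 1.58% in combination, 1.77%, 1.76% and 1.76% in anti-B7-H3, 1.15%, 1.11% and 1.15% with anti-PD1 and 0.635%, 0.495% and 0.548% in isotype control libraries. No library of any group overlapped those of another group, as the plot of shares shows. These shares rest on 61767 to 74236 large subunit reads per library in combination, 86321 to 96154 in anti-B7-H3, 38121 to 41927 with anti-PD1 and 8287 to 11919 with isotype control. The ratio of large to small subunit reads was 1.36 ± 0.0135 in combination, 1.38 ± 0.00912 in anti-B7-H3, 1.38 ± 0.0126 with anti-PD1 and 1.47 ± 0.0143 in isotype control (SD, n = 3 each). In bulk tumour RNA, more cells of a type and more RNA per cell cannot be told apart.

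The same order held gene by gene. Reads were scaled to library size with trimmed means (TMM) and are given as CPM, and 80 of 83 members passed the filter on low counts. In 56 of these 80, every anti-B7-H3 library lay above every combination library, these above every anti-PD1 library and these above every isotype control library. The same arrangement was found in 4.45% of the 13478 genes tested. It held in 32 of 48 large subunit and 24 of 32 small subunit members.

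Anti-B7-H3 against isotype control gave the widest difference. Of the 80 tested members, 77 were called higher at an adjusted p under 0.05 in edgeR's quasi-likelihood test, where 30.8% of all genes were called higher and 0 were called lower, where 33.3% of all genes were. At an unadjusted p under 0.05 none was lower either, and a DESeq2 Wald test, which had no filter and so took in all 83 members, called 77 of 83 higher and 3 lower. Large subunit genes had a median log2 fold change of 1.08 and small subunit genes of 1.27, with a median of -0.04 over all genes. In 50 members the call was at least 2-fold. The 3 members not called were Rpl21, Rpl29 and Rpl7l1. With the background subtracted from every gene, 53 members were higher and 8 lower, with medians of 0.27 and 0.46 beside a median of 0.28 over all genes. That subtraction takes 2.10% of large and 1.75% of small subunit reads from isotype control libraries, and the scaling factors of all libraries are computed anew from the reads that are left. Among the 2089 genes that held at least 5 times the background in every group, 74 members were higher and 2 lower. The medians were 0.72 and 0.91, beside -0.02 over those genes. The share of all genes called was not counted under either treatment of background, at 2-fold, at an unadjusted p or by DESeq2. This holds here and in the comparisons below.

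Anti-PD1 against isotype control gave a smaller difference in the same direction. Of 80 members, 67 were called higher, where 17.5% of all genes were, and 2 lower, where 20.9% were. The medians were 0.54 for the large and 0.64 for the small subunit, with -0.04 over all genes, and only Rps28 and Rps9 were called at 2-fold or more. With the background subtracted the counts were far smaller: 14 members were higher and 14 lower, and the medians were -0.02 and 0.08 beside 0.16 over all genes. Among genes at 5 times background or more, 50 were higher and 7 lower.

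The combination against isotype control lay between the single antibodies. Of 80 members, 75 were called higher, where 27.8% of all genes were, and 2 lower, where 29.5% were, with medians of 0.84 and 1.06 beside -0.01 over all genes. With background subtracted, 35 were higher and 15 lower, with medians of 0.07 and 0.29 beside 0.26 over all genes. Among genes at 5 times background or more, 65 were higher and 4 lower.

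**Figure D2:**
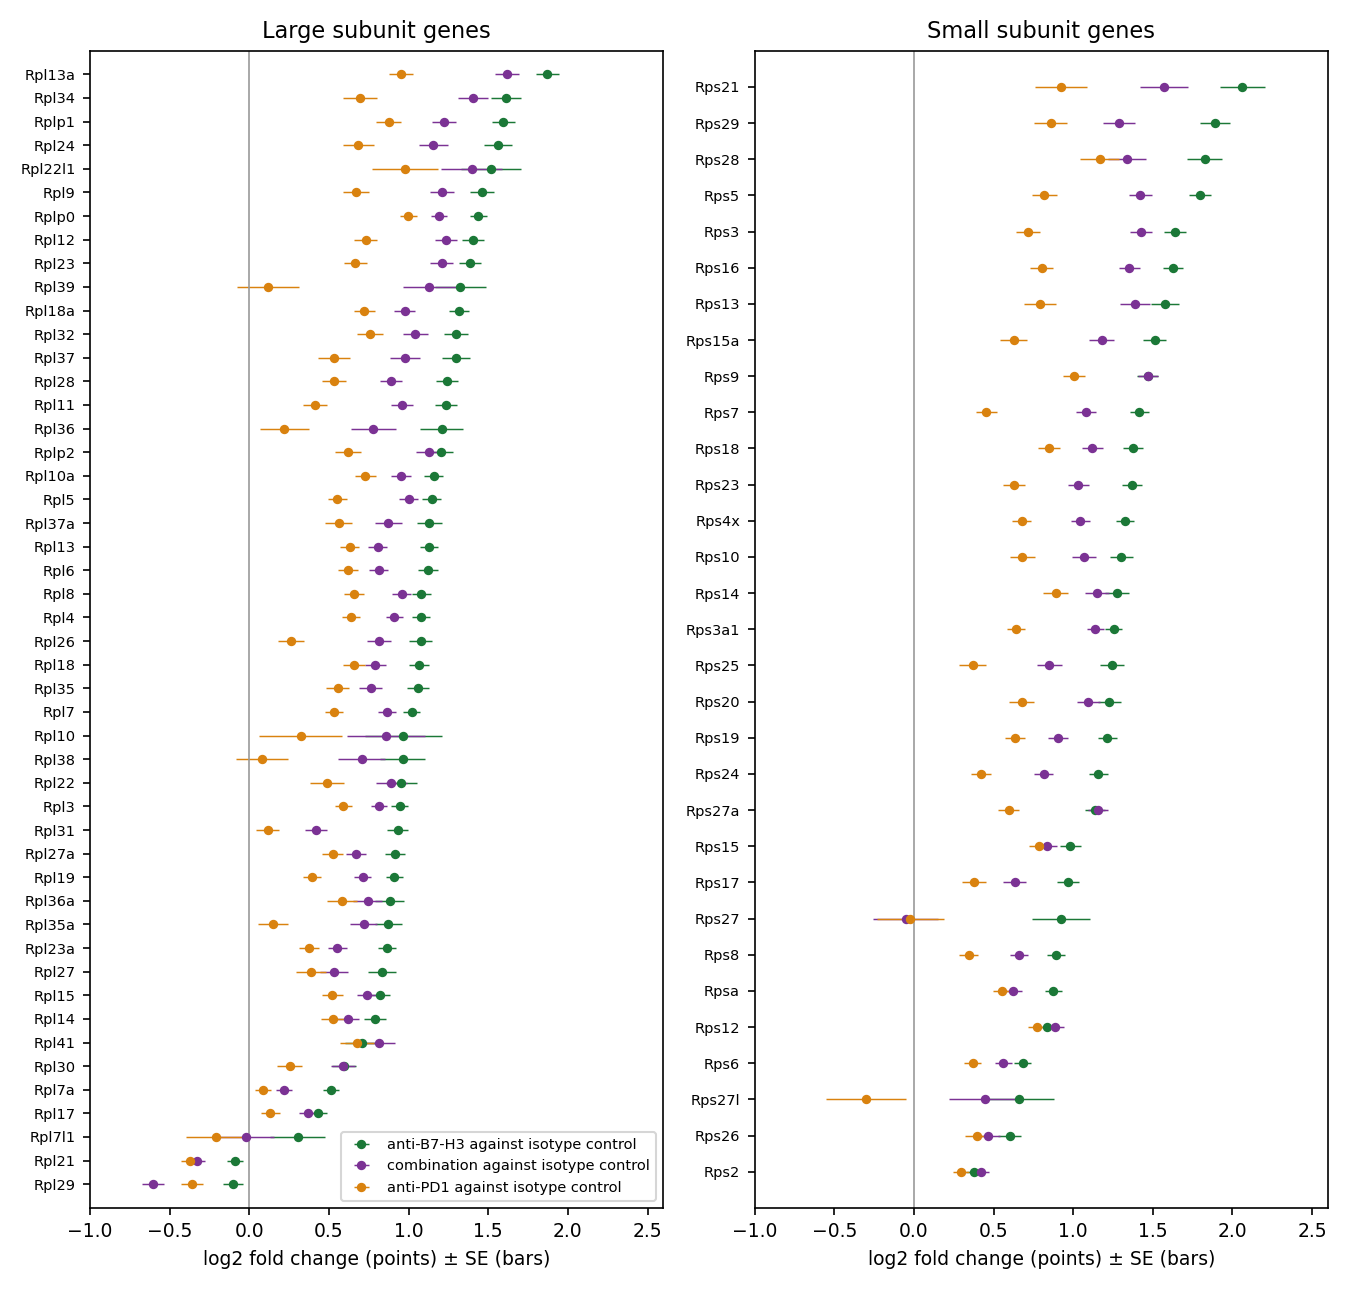
Log2 fold change (points) with its standard error (bars) of tested members against isotype control, for anti-B7-H3 (green), combination (purple) and anti-PD1 (orange), with large subunit genes on the left and small subunit genes on the right, ordered by anti-B7-H3. Most genes run in the order anti-B7-H3, combination, anti-PD1, and Rpl21 and Rpl29 lie below 0 in each of the 3 comparisons.

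The comparison that leaves out both groups with most satellite-like reads is combination against anti-B7-H3. Here 0 members were called higher, where 19.8% of all genes were, and 64 of 80 lower, where 19.1% were in edgeR's quasi-likelihood test. At an unadjusted p under 0.05 the counts were 0 and 67, and a DESeq2 Wald test called 1 of 83 higher and 66 lower. Both subunits had a median of -0.25, beside 0.01 over all genes, so the decrease was small, and no member fell by 2-fold. It depended little on the background: 54 members were lower with it subtracted, with medians of -0.22 and -0.23, and 66 were lower when only these 2 groups were fitted. Rps27, a zinc-binding protein of the small subunit, fell most, and Rps29 also fell (-0.60 ± 0.0553). Rpl41 (0.11 ± 0.065), Rps12 (0.05 ± 0.0457) and Rps9 (0.00 ± 0.0465) were among those not called.

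Combination against anti-PD1 gave 69 members higher, where 23.1% of all genes were, and 1 lower, where 23.4% were, with medians of 0.31 and 0.40. Rpl39, which lines the exit tunnel, rose most, by 1.01 ± 0.117, and Rpl29 was the member that fell, by 0.25 on the log2 scale. With the background subtracted the counts were 37 and 6. Anti-B7-H3 against anti-PD1 gave 77 members higher, where 30.4% of all genes were, and 0 lower, where 31.6% were, with medians of 0.51 and 0.63 in edgeR's quasi-likelihood test. At an unadjusted p under 0.05 the counts were 77 and 0, and a DESeq2 Wald test called 79 of 83 higher and 2 lower. With background subtracted 65 were higher and 3 lower.

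The difference between combination and anti-B7-H3 was lower than that between anti-PD1 and isotype control in most members. This interaction, the effect of anti-PD1 on top of anti-B7-H3 minus its effect over isotype control, was called below 0 in 73 of 80 members, where 17.3% of all genes were, and above 0 in 0, where 19.1% were (edgeR's quasi-likelihood test). At an unadjusted p under 0.05 the counts were 73 and 0, and a DESeq2 Wald test called 74 of 83 in either direction. The medians were -0.71 for the large and -0.93 for the small subunit, beside 0.04 over all genes. With background subtracted 46 members were called in either direction, and the medians of -0.12 and -0.35 stood beside -0.20 over all genes.

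**Figure D3:**
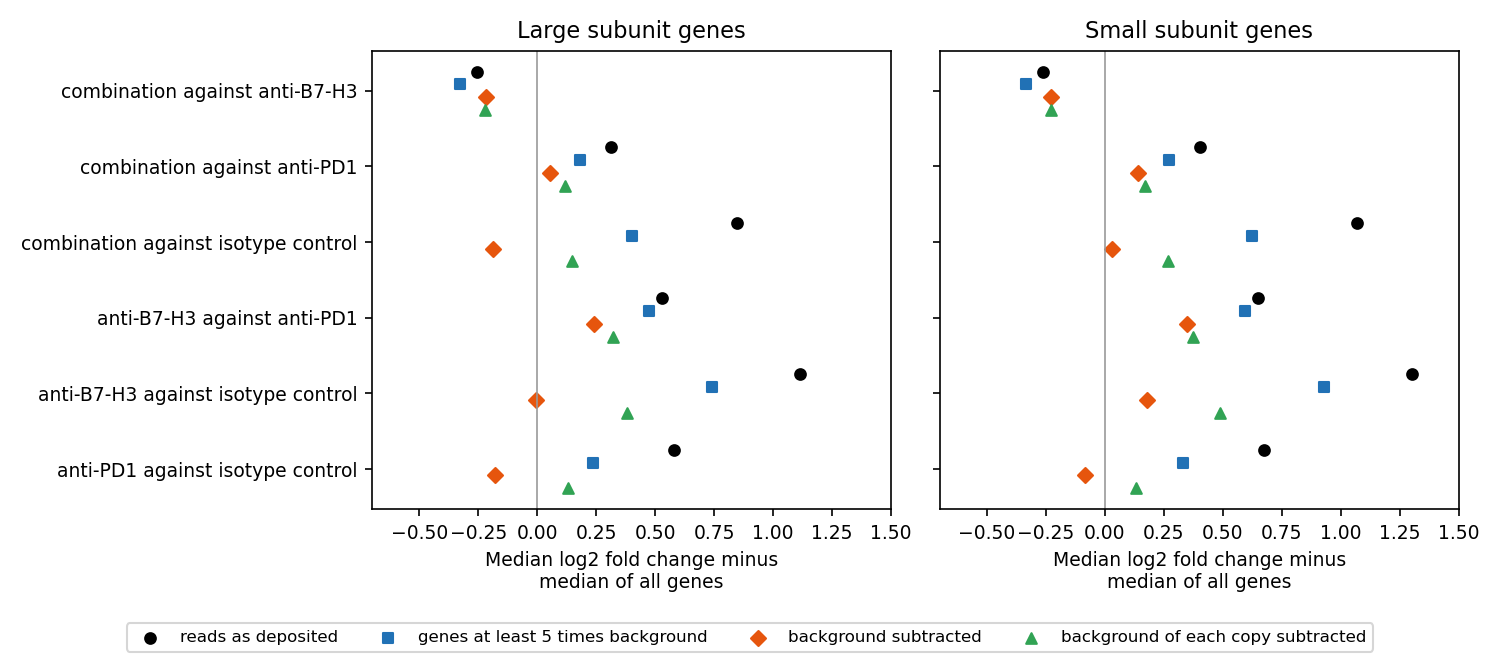
Median log2 fold change of large (left) and small (right) subunit genes minus the median of all genes, for 6 comparisons (rows) under 4 ways of treating background (markers). Combination against anti-B7-H3 stays between -0.33 and -0.22, while the comparisons with isotype control run from 1.30 down to -0.19.

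The plot of medians by background treatment shows where the choice matters. Relative to all genes, anti-B7-H3 against isotype control was 1.11 for the large subunit with reads as deposited, 0.74 among genes at 5 times background, and -0.01 with background subtracted. Combination against anti-B7-H3 moved only between -0.33 and -0.22 over these treatments.

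The ribosomal stalk, formed by RPLP0 with the acidic proteins RPLP1 and RPLP2, recruits the elongation factors. Rplp0 had 433, 434 and 436 CPM in combination libraries, 526, 502 and 520.5 in anti-B7-H3, 392, 373 and 375 with anti-PD1 and 194, 179 and 198 with isotype control libraries. No 2 groups overlapped, and all anti-PD1 libraries stood well above isotype control. Rplp0 rose by 1.44 ± 0.0526 under anti-B7-H3 (log2 ± SE, edgeR adjusted p = 2.38e-36), 1.19 ± 0.0528 in the combination and 0.996 ± 0.0534 under anti-PD1. Rplp1 had 132, 137 and 144 CPM in combination, 181, 171 and 182 in anti-B7-H3, 112, 109 and 104 with anti-PD1 and 60.6, 46.0 and 69.5 in isotype control libraries. It rose by 1.59, 1.22 and 0.88 under anti-B7-H3, the combination and anti-PD1, again without overlap. Rplp2 rose by 1.20, 1.13 and 0.62 in the same comparisons, and its combination libraries overlapped those of anti-B7-H3.

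Rpsa, a small subunit protein that also gives rise to the laminin receptor, changed less. It had 292, 302 and 288 CPM in combination, 345, 351 and 355 in anti-B7-H3, 269, 285 and 284 with anti-PD1 and 214, 172 and 185 with isotype control libraries. It rose by 0.88 ± 0.0544 under anti-B7-H3, 0.62 ± 0.0549 in the combination and 0.55 ± 0.0556 under anti-PD1. Every combination library lay just above every anti-PD1 library, but the difference was not called (0.07 ± 0.0479, edgeR adjusted p = 0.215). With background subtracted Rpsa was 0.06 under anti-B7-H3 (edgeR adjusted p = 0.352) and was called lower in the combination, at -0.17 (edgeR adjusted p = 0.00853).

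**Figure D4:**
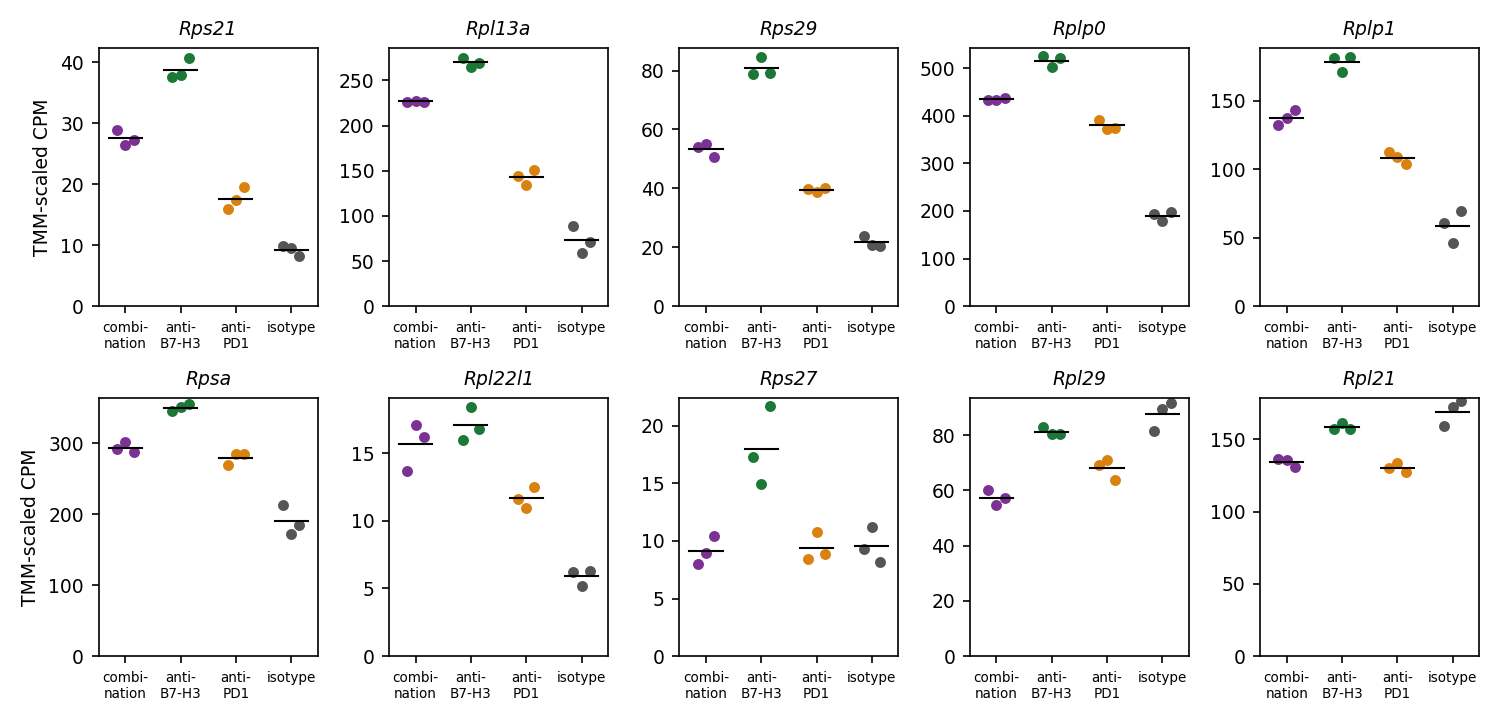
TMM-scaled CPM of 10 members in each library, by group (points are libraries, lines are means of 3). Rps21, Rpl13a, Rps29, Rplp0 and Rplp1 show 4 separate levels, Rps27 is high in anti-B7-H3 libraries alone, and Rpl29 and Rpl21 are at their highest in isotype control libraries or level with anti-B7-H3.

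Under anti-B7-H3 the small subunit gene Rps21 had the largest fold against isotype control of all members, followed by Rps29. Rps21 had 28.9, 26.4 and 27.2 CPM in combination, 37.5, 37.9 and 40.7 in anti-B7-H3, 16, 17.3 and 19.5 with anti-PD1 and 9.89, 9.60 and 8.17 in isotype control libraries. Every group stood apart, with anti-B7-H3 highest. The rise was 2.06 ± 0.14 under anti-B7-H3 (edgeR adjusted p = 1.17e-21), 1.57 ± 0.148 in the combination and 0.92 ± 0.164 under anti-PD1. Rps29, a zinc-binding protein of the small subunit, had 54.2, 55.2 and 50.7 CPM in combination, 78.9, 84.5 and 79.2 in anti-B7-H3, 39.8, 38.7 and 40.2 with anti-PD1 and 23.8, 20.8 and 20.4 in isotype control libraries. It rose by 1.89 ± 0.0928 under anti-B7-H3, 1.29 ± 0.0992 in the combination and 0.86 ± 0.106 under anti-PD1. Rps28 rose by 1.82, 1.34 and 1.17 in the same comparisons, and it was the member with the widest rise under anti-PD1. Rps9 rose by 1.47 under anti-B7-H3, 1.47 in the combination and 1.005 under anti-PD1, and its anti-B7-H3 and combination libraries overlapped.

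Under anti-B7-H3 the smallest folds of the small subunit against isotype control belonged to Rps2, Rps26 and Rps27l. Rps2, which lies at the mRNA entry site, had 459.6, 444 and 458 CPM in combination, 439.6, 429.8 and 450.2 in anti-B7-H3, 424, 402 and 422 with anti-PD1 and 349, 341 and 325 with isotype control libraries. Isotype control stood lowest, anti-PD1 lay just under the other treatments, and combination and anti-B7-H3 overlapped. Rps2 rose by 0.38 under anti-B7-H3, 0.42 in the combination and 0.30 under anti-PD1. With background subtracted it was -0.45, -0.38 and -0.28, and each was called lower. Rps26, at the mRNA exit site, rose by 0.60, 0.46 and 0.40. With background subtracted Rps26 was called lower under anti-B7-H3 (-0.21) and in the combination (-0.32), and was -0.17 and not called under anti-PD1. Rps12 rose by 0.83, 0.89 and 0.77, and was not called between combination and anti-B7-H3 (0.05 ± 0.0457). With background subtracted Rps12 was 0.009 under anti-B7-H3 and 0.09 in the combination, neither of them called.

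In the large subunit, Rpl13a, Rpl34 and Rplp1 had the largest folds under anti-B7-H3. Rpl13a, which in human myeloid cells leaves the ribosome to silence inflammatory mRNAs, had 226, 228 and 226 CPM in combination, 275, 265 and 269 in anti-B7-H3, 144, 134 and 150.3 with anti-PD1 and 88.4, 58.8 and 71.3 in isotype control libraries. No groups overlapped, and combination libraries were nearly identical. It rose by 1.87 ± 0.0722 under anti-B7-H3 (edgeR adjusted p = 3.89e-23), 1.62 ± 0.0733 in the combination and 0.95 ± 0.0772 under anti-PD1. Rpl34 rose by 1.61, 1.41 and 0.69.

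Other members with a role outside the ribosome moved with the rest. Rpl5 had 285, 258 and 262 CPM in combination, 294, 305 and 291 in anti-B7-H3, 195, 198 and 197 with anti-PD1 and 146, 113 and 141 with isotype control libraries. It rose by 1.14 under anti-B7-H3, 1.001 in the combination and 0.55 under anti-PD1. Rpl11, its partner in binding MDM2, had 97.4, 99.5 and 97.2 CPM in combination, 121, 119.8 and 116 in anti-B7-H3, 63.2, 65.4 and 72.8 with anti-PD1 and 50.7, 50.4 and 50.1 in isotype control libraries. It rose by 1.24, 0.96 and 0.41. Rpl26, which binds p53 mRNA in human cells, rose by 1.07, 0.81 and 0.26, the last of which became -0.30, called lower, with background subtracted. Under anti-PD1 that subtraction also turned Rpl11 to -0.14 and Rpl5 to -0.01.

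Rps3, a DNA repair enzyme and a partner of NF-kappa-B as well as a ribosomal protein, had 167, 165 and 163 CPM in combination, 196, 195 and 183 in anti-B7-H3, 104, 96.3 and 103 with anti-PD1 and 67.4, 49.2 and 66.1 in isotype control libraries. It rose by 1.64, 1.42 and 0.72 under anti-B7-H3, the combination and anti-PD1. Rps19, the gene most often mutated in Diamond-Blackfan anaemia, rose by 1.22, 0.90 and 0.64. Rps6, the substrate of the S6 kinases, changed less than either, by 0.68, 0.56 and 0.37. With background subtracted Rps6 was -0.14, -0.23 and -0.20, and each was called lower.

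Subtracting background also ended other calls against isotype control among the genes named here. Under anti-B7-H3 it ended that of Rpl22 (0.175). In the combination it ended those of Rpl22 (0.14), Rpl26 (0.04), Rpl3 (0.03), Rpl7 (0.08), Rpl39 (0.39), Rpl41 (0.02) and Rps19 (0.12). Under anti-PD1 it ended those of Rpl3 (0.02), Rpl34 (0.16), Rpl41 (0.11), Rplp2 (0.06), Rps3 (0.17), Rps19 (0.07) and Rps21 (0.445). Among genes at 5 times background, the calls of Rpl11 (0.09), Rpl22 (0.17), Rps6 (0.05) and Rps26 (0.08) ended under anti-PD1, that of Rps26 (0.03) in the combination and that of Rps2 (0.02) under anti-B7-H3.

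Some members have a paralogue with a narrower pattern of use, and 3 of these had few reads. Rpl3l, used in muscle, held 11 reads over the 3 combination libraries, 1 in anti-B7-H3, 23 with anti-PD1 and 24 with isotype control, where background alone gives 2.65, 0.357, 19.7 and 27.5. Rpl10l, a testis gene, held 0, 0, 12 and 20 reads, against 1.39, 0.188, 10.4 and 14.5 from background. Rpl39l held 1, 2, 9 and 10 reads, against 0.337, 0.0455, 2.51 and 3.51 from background. With anti-PD1 and isotype control libraries these counts lay near the background for Rpl3l and Rpl10l and above it for Rpl39l. In combination libraries the 11 reads of Rpl3l lay above the 2.65 from background. None of the 3 was tested.

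The 3 paralogues that were tested differed in their course. Rpl22l1 had 13.7, 17.1 and 16.2 CPM in combination, 15.9, 18.4 and 16.7 in anti-B7-H3, 11.6, 10.9 and 12.5 with anti-PD1 and 6.18, 5.20 and 6.31 in isotype control libraries. It rose by 1.52 ± 0.187, 1.40 ± 0.191 and 0.97 ± 0.207 under anti-B7-H3, the combination and anti-PD1, while its common partner Rpl22 rose by 0.95 ± 0.0962, 0.89 ± 0.0976 and 0.49 ± 0.104; the difference between the paralogues was not tested. Rpl7l1 had 11.2, 8.98 and 10.8 CPM in combination, 12.9, 11.6 and 14.6 in anti-B7-H3, 9.01, 8.92 and 9.48 with anti-PD1 and 12.1, 10.4 and 8.91 in isotype control libraries. Its groups overlapped and it was not called against isotype control, with 0.30 ± 0.171 under anti-B7-H3 (edgeR adjusted p = 0.116), whereas Rpl7 rose by 1.02. With no filter it was called higher there, at 0.62, and with satellite-like genes left out, at 0.545. Among genes at 5 times background it was called lower in the combination (-0.46) and under anti-PD1 (-0.53). Under anti-B7-H3, Rpl7l1 was also called higher, at 0.46, without anti-B7-H3 replicate 2 and, at 0.38, without combination replicate 2. Rps27l, a p53 target, had 7.31, 7.70 and 8.20 CPM in combination, 9.44, 9.26 and 8.37 in anti-B7-H3, 5.45, 3.64 and 4.74 with anti-PD1 and 5.87, 6.40 and 4.83 in isotype control libraries. It rose by 0.66 ± 0.217 under anti-B7-H3 (edgeR adjusted p = 0.00618), which was 0.54 and not called without isotype control replicate 3. That call was also lost with effective length allowed for (0.48), among genes at 5 times background (0.31) and with background subtracted (0.02). Rps27l was -0.30 ± 0.253 under anti-PD1, and was called lower there, at -0.62, among genes at 5 times background. In the combination it was 0.44 ± 0.225 and not called (edgeR adjusted p = 0.0848), but it was called, at 0.53 to 0.54, without any 1 anti-B7-H3 library or without combination replicate 1 or 2. It was also called with satellite-like genes left out (0.72) and with background subtracted for each pseudogene copy (1.39), a treatment described below. Of the common members of these pairs, Rpl39 had 17.7, 18.6 and 16.9 CPM in combination, 20.8, 20.2 and 19.7 in anti-B7-H3, 8.53, 9.04 and 8.69 with anti-PD1 and 6.80, 8.40 and 9.29 in isotype control libraries. Anti-PD1 and isotype control overlapped, and Rpl39 rose by 1.32 ± 0.162 under anti-B7-H3 and 1.13 ± 0.167 in the combination and was 0.12 ± 0.195 under anti-PD1. Rpl3 rose by 0.94, 0.81 and 0.59 under anti-B7-H3, the combination and anti-PD1. Rpl10 rose by 0.97 and 0.86 under anti-B7-H3 and the combination, with isotype control libraries at 108, 43.2 and 62.8 CPM. The Rpl10 call in the combination was lost without isotype control replicate 2 (0.60) or 3 (0.74), when only the groups compared were fitted (0.83), among genes at 5 times background (0.42) and with background subtracted (0.09). Its call under anti-B7-H3 was lost with background subtracted (0.17). Under anti-PD1 Rpl10 was 0.32 ± 0.26, and it was called at 0.78 without isotype control replicate 1.

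Rps27 was the member whose combination and anti-B7-H3 levels differed most. It had 7.96, 8.98 and 10.4 CPM in combination, 17.3, 14.96 and 21.8 in anti-B7-H3, 8.41, 10.8 and 8.83 with anti-PD1 and 9.27, 11.2 and 8.17 in isotype control libraries. The 3 anti-B7-H3 libraries stood above all others, and the other groups overlapped. Against anti-B7-H3 the combination fell by 0.97 on the log2 scale (SE 0.122, edgeR adjusted p = 1.12e-09), and against isotype control it was -0.05 ± 0.204. Anti-B7-H3 against isotype control was 0.92 ± 0.18, and 0.16 with background subtracted, a treatment under which the combination was called lower than isotype control, at -0.79 (edgeR adjusted p = 0.0119). These values rest on 304 reads over the 3 combination libraries, 685 in anti-B7-H3, 225 with anti-PD1 and 80 with isotype control. Its tract-bearing start is printed above, and the other 5 members printed there rose against isotype control under anti-B7-H3 and in the combination.

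With reads as deposited, Rpl21 and Rpl29 were the members that went against the rest. With background subtracted other members were called lower too, among them Rps2 and Rps6 in each comparison with isotype control. Rpl21 had 136, 135 and 131 CPM in combination, 157, 161 and 157 in anti-B7-H3, 130.2, 133 and 128 with anti-PD1 and 159, 172 and 176 with isotype control libraries. Isotype control lay above combination and anti-PD1, and overlapped anti-B7-H3. It fell by 0.33 in the combination (SE 0.0531, edgeR adjusted p = 1.83e-07) and by 0.37 under anti-PD1, and it was -0.09 ± 0.0521 under anti-B7-H3. Rpl29, a small basic protein also known as a heparin-binding protein, had 60.3, 54.6 and 57.2 CPM in combination, 82.9, 80.6 and 80.4 in anti-B7-H3, 69.3, 71.1 and 63.8 with anti-PD1 and 81.6, 89.6 and 91.7 in isotype control libraries. It fell by 0.60 in the combination (SE 0.069, edgeR adjusted p = 8.6e-12) and by 0.36 under anti-PD1, and was -0.10 ± 0.0656 under anti-B7-H3. The anti-B7-H3 value of both genes depended on the setting. Without isotype control replicate 1 it was called lower, at -0.16 for Rpl21 and -0.18 for Rpl29, and Rpl21 was also called lower, at -0.12, without any 1 anti-PD1 library. Both were called lower with background subtracted (-0.92 each), among genes at 5 times background (-0.45 and -0.46) and with effective length allowed for (-0.20 and -0.27). Both were called higher with no filter, at 0.22 for Rpl21 and 0.21 for Rpl29, and Rpl21 also with satellite-like genes left out (0.15). In the combination the call of Rpl21 was lost under these last settings, at -0.03 and -0.05.

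**Figure D5:**
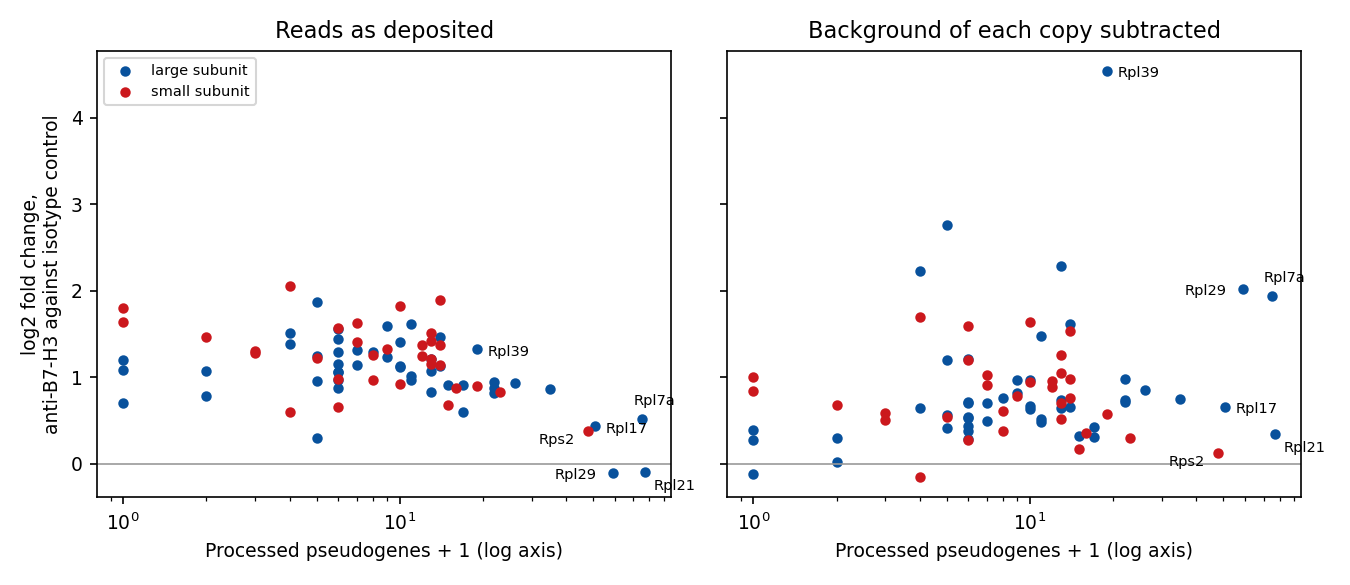
Log2 fold change of each tested member, anti-B7-H3 against isotype control, by its number of processed pseudogenes plus 1 (log axis), with reads as deposited (left) and with background subtracted once for the gene and once for each pseudogene (right); blue is large and red is small subunit. On the left, most members with many pseudogenes lie low, with Rpl21 and Rpl29 just below 0. Rpl7l1, with 4, is also low, at 0.30, and Rpl23a, with 34, is at 0.86. On the right Rpl29 is at 2.02, and Rpl39 is highest, at 4.54. The subtraction on the right takes more reads from members with more copies.

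Ribosomal protein genes have many processed pseudogenes, copies of their mRNA in the genome. Of the annotated pseudogenes, 970 matched 76 members at 90% identity or more over at least 80% of the coding sequence. Of 10256 annotated transcripts of processed pseudogenes, 1 is listed in the deposited files, so reads of the others were not counted under a name of their own. Rpl21 had 76 copies, Rpl7a 74, Rpl29 58, Rpl17 50, Rps2 47 and Rpl23a 34. These 6 members had a median log2 fold change of 0.40 between anti-B7-H3 and isotype control, against 1.07 for 29 members with 10 to 29 copies, 1.25 for 26 with 5 to 9, 1.26 for 14 with 1 to 4 and 1.20 for 5 with none. In the combination the medians were 0.29, 0.82, 0.97, 1.08 and 1.13, and under anti-PD1 0.11, 0.52, 0.65, 0.67 and 0.68, in the same order of bins. Over the 80 members the correlation between fold and copies was -0.38 (Spearman) under anti-B7-H3, -0.45 in the combination and -0.49 under anti-PD1, as a description across genes that share their libraries. It was -0.11 for combination against anti-B7-H3, -0.21 for combination against anti-PD1 and -0.12 for anti-B7-H3 against anti-PD1. With coding length the correlations were -0.11, -0.05 and 0.05 for anti-B7-H3, the combination and anti-PD1 against isotype control, and 0.20 for combination against anti-B7-H3. With GC content they were 0.10, 0.06, 0.335 and -0.195 for these 4 comparisons.

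Subtracting the background once for a gene and once for each of its copies was a treatment chosen after seeing the data. It left 76 members higher and 0 lower under anti-B7-H3, 67 higher and 1 lower in the combination and 49 higher and 0 lower under anti-PD1. The correlation with copies was then 0.14, 0.12 and 0.21 for the same comparisons. The 6 members with most copies had a median of 0.70 under anti-B7-H3. The subtraction takes more reads from members with more copies, and background was highest in isotype control. Higher folds with more copies are thus built into this treatment. It can take most reads of a gene: Rpl39, with 18 copies, held 68 reads in isotype control, where background for 1 copy is 3.51. Rpl21 was 0.35 under anti-B7-H3, 0.11 in the combination and 0.02 under anti-PD1, and Rpl29 was 2.02, 1.503 and 1.55. The part that reads of pseudogenes have in the values as deposited was not tested.

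Levels can be compared between genes only per length, here as TPM rescaled over the genes outside satellite-like genes. Rpl41, which encodes one of the smallest proteins known, was the first of the large subunit in every group, with 6840 ± 344 TPM in combination, 7105 ± 348 in anti-B7-H3, 4209.6 ± 471 with anti-PD1 and 1325 ± 362 with isotype control libraries (SD, n = 3 each). Rplp0 had 1779.9 ± 26.7, 2123 ± 49.9, 1109 ± 48.7 and 256 ± 35.4 in the same groups. Rps29 led the small subunit in combination (2828 ± 101) and anti-B7-H3 libraries (4661 ± 126). Rps12 led it in anti-PD1 (1597 ± 71.0) and isotype control libraries (489 ± 124), where Rps29 had 1434 ± 57.1 and 405 ± 91.7, so the pair overlaps in isotype control. At the other end, Rpl7l1 had 49.2 ± 3.57, 65.6 ± 5.42, 36.0 ± 16.7 and 21.1 ± 6.49 TPM. The SD of log2 TPM between the 48 tested large subunit genes was 0.94 in combination, 0.92 in anti-B7-H3, 0.94 with anti-PD1 and 0.92 with isotype control, and between the 32 small subunit genes it was 0.72, 0.69, 0.81 and 0.70. Effective lengths, as deposited, were shorter where background was high, with a median over members of 306 bases in combination, 318 in anti-B7-H3, 278 with anti-PD1 and 259 with isotype control. Allowing for them left 76 members higher and 2 lower under anti-B7-H3.

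Rps24, singled out after its values were seen, is spliced into forms that differ in their last codons. The form with 402 coding bases held 84.35%, 83.32% and 86.92% of Rps24 reads in combination, 90.29%, 90.25% and 89.64% in anti-B7-H3, 79.76%, 85.14% and 86.85% with anti-PD1 and 73.86%, 97.39% and 79.55% in isotype control libraries. Anti-B7-H3 libraries lay above all combination and anti-PD1 libraries, and isotype control spanned the whole range. The split between such similar forms is the estimate of the authors' program, and the difference was not tested.

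The genes around the ribosome gave a comparison. Of 4 ribosomal proteins that the symbol rule misses, all were called higher under anti-B7-H3, with Rack1, a scaffold on the small subunit, at 1.64 ± 0.0596 and Fau at 1.21. All 4 fell in the combination against anti-B7-H3, with a median of -0.35. A list of 16 genes known for such a tract, most of them translation factors, was set beside them; the RefSeq start had a tract in 3 of the 10 with a window. Of the 16, 12 were higher and 3 lower under anti-B7-H3 (median 0.57), 14 higher and 2 lower in the combination (0.64) and 11 higher and 1 lower under anti-PD1 (0.47). Of all genes, 30.8%, 27.8% and 17.5% were higher and 33.3%, 29.5% and 20.9% lower in these comparisons. The elongation factor Eef1a1 rose by 1.40, and Hnrnpa1, a splicing protein, fell by 0.83 under anti-B7-H3. Between combination and anti-B7-H3, 4 of these 16 genes were higher and 4 lower, with a median of 0.02.

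Ribosome biogenesis genes were called in both directions. Of 25, 4 were higher and 8 lower under anti-B7-H3, 4 higher and 7 lower in the combination and 4 higher and 1 lower under anti-PD1, with medians of -0.05, 0.05 and 0.06. The lower genes were 32.0% of the list under anti-B7-H3, 28% in the combination and 4% under anti-PD1. Of all genes, 33.3%, 29.5% and 20.9% were lower. The higher genes were 16% of the list in each comparison, where 30.8%, 27.8% and 17.5% of all genes were higher. Rrs1, needed to assemble the large subunit, fell by 1.11 ± 0.15 under anti-B7-H3, Polr1b, a subunit of RNA polymerase I, by 1.05 and Fbl, the rRNA methyltransferase, by 0.89. Of 78 mitochondrial ribosomal protein genes, 27 were higher and 4 lower under anti-B7-H3 (median 0.33), 19 higher and 2 lower in the combination (0.36) and 13 higher and 3 lower under anti-PD1 (0.16). The higher genes were 34.6% of this list under anti-B7-H3, 24.4% in the combination and 16.7% under anti-PD1. Of all genes, 30.8%, 27.8% and 17.5% were higher. The lower genes were 5.13%, 2.56% and 3.85% of this list, where 33.3%, 29.5% and 20.9% of all genes were lower. Mrpl13 rose by 1.38 and Mrps36 fell by 1.78 under anti-B7-H3.

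Regulators of ribosomal protein synthesis were mixed, and 15 of 16 were tested. Under anti-B7-H3 5 were higher and 3 lower, in the combination 6 and 2, and under anti-PD1 7 and 3. The higher genes were 33.3%, 40.0% and 46.7% of the 15, where 30.8%, 27.8% and 17.5% of all genes were higher. The lower genes were 20.0%, 13.3% and 20.0%, where 33.3%, 29.5% and 20.9% of all genes were lower. Rheb, the GTPase that activates mTORC1, had a mean of 16.4 ± 0.72 CPM in combination, 16.7 ± 1.1 in anti-B7-H3, 9.13 ± 1.5 with anti-PD1 and 5.33 ± 1.4 in isotype control libraries (SD, n = 3 each), and it rose by 1.65, 1.62 and 0.77 under anti-B7-H3, the combination and anti-PD1. Eif4ebp1, the repressor of cap-dependent translation that mTORC1 inactivates, rose by 1.43, 1.06 and 0.55. Rps6kb2, an S6 kinase gene, fell by 1.44, 1.13 and 0.72. Myc, a transcription factor that drives ribosome production, was not called, with -0.09, -0.01 and 0.11, and neither was Mtor.

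The summed macrophage, B and plasma cell and fibroblast markers had the same order of groups as the ribosomal protein genes, and the other 5 marker lists did not. All 8 macrophage markers had reads in every group, and their summed level was 1127 to 1143 CPM in combination, 2303 to 2329.7 in anti-B7-H3, 381 to 402 with anti-PD1 and 260.3 to 284 in isotype control libraries. Having reads is a weak mark where background is high: 327 of the 2277 macrophage marker reads in isotype control are given by background. The 5 B and plasma cell markers summed to 351 to 362, 2080.2 to 2108, 52.7 to 59.1 and 33.1 to 39.0 CPM in these groups, and the 5 fibroblast markers to 4202 to 4262, 6457 to 6599.5, 3839 to 4078 and 1739.8 to 1998 CPM. The 8 melanocyte markers ran the other way, with 57.0 to 59.2, 32.6 to 36.0, 94.8 to 100.8 and 99.2 to 117 CPM, and Tyrp1 and Dct were at 0 in anti-B7-H3 libraries. Their ranges with anti-PD1 and isotype control overlapped. Background gives 229 of the 930 melanocyte marker reads in isotype control and 164 of the 2347 with anti-PD1, so the order of these 2 groups is uncertain. The 7 T cell markers, at 11.3 to 13.8, 24.0 to 26.4, 3.16 to 4.65 and 10.4 to 12.4 CPM, held 95 reads in isotype control where background gives 106. Muscle markers were highest in the combination (81.2 to 86.5 CPM), where anti-B7-H3 libraries held 0.225 to 0.579, anti-PD1 16.2 to 21.7 and isotype control 21.6 to 28.003; the 215 muscle marker reads of isotype control compare with 210.3 from background. Keratinocyte markers reached at most 0.656 CPM in combination libraries and 0.15 CPM in those of anti-B7-H3. They held 9.60 to 14.6 CPM with anti-PD1 and 16.4 to 20.4 in isotype control. In isotype control, 152 keratinocyte reads compare with 110 from background, and 309 B and plasma cell reads with 113. With anti-PD1, 272 keratinocyte reads compare with 78.7 from background, and 89 T cell reads with 75.6. Red blood cell markers held 16.2 to 17.4, 20.1 to 22.2, 56.9 to 69.3 and 20.8 to 30.6 CPM. The part of cell type makeup in the ribosomal protein values was not tested.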

How the data were processed

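Bulk RNA-seq of 12 tumour libraries, 3 in each of 4 groups, was used. The deposited files hold, per the file headers, TPM and estimated counts for each transcript beside its length and effective length, all made by the authors. FastQC 0.11.8 and the build GRCm38 are named in the submitters' processing notes; the read assignment program and strand setting are not given in the sources used here. Estimated counts were summed per gene (57473 of 58083 transcripts matched GENCODE M21) and rounded. Unmatched transcripts held at most 0.415% of reads.

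Counts were tested with edgeR 4.0.16 (R 4.3.3): TMM scaling, the default filter on low counts, robust quasi-likelihood fits with 1 mean per group over all 12 libraries, and Benjamini-Hochberg adjustment over the 13478 genes tested, with a threshold of 0.05. SE is the log2 fold change divided by the root of its F statistic. The fit was checked on simulated counts. Alternatives changed the scaling, filter, tool (DESeq2 1.42.0), libraries, background and length. Genes were named by rule: stalk and laminin receptor genes, paralogue pairs, members with other roles, the 3 largest and smallest folds per subunit against isotype control, members against the trend, the most abundant per length and the largest interactions. The separate values of some genes that the rule or lists hold are not reported here. The members and lists were chosen with earlier results of these data known. RefSeq windows gave the start sequences. Replicate numbers are shared between groups, but no label says that they pair libraries.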

Additional observations from a re-analysis of the deposited data

Results flagged for a closer look

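The effect of anti-PD1 on top of anti-B7-H3 differed from its effect over isotype control in 73 of the 80 tested members (edgeR interaction test, adjusted over all genes), each of them with a lower value on top of anti-B7-H3. Of all genes tested, 17.3% were called in that direction and 19.1% in the other. Among the largest were Rps28 (-1.65, log2), Rps29 (-1.46) and Rps21 (-1.42) of the small subunit. In the large subunit they were Rplp1 (-1.25), Rplp0 (-1.24) and Rpl13a (-1.20). With background subtracted, 46 members were called, in either direction, and these 6 kept their sign and their call. The large subunit median minus the median of all genes was then 0.08, against -0.75 with reads as deposited.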

How the results depend on the processing

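The reads per library outside satellite-like genes, lowest in isotype control, limit what can be seen there, and comparisons with isotype control and anti-PD1 depended most on the treatment of background. Between combination and anti-B7-H3, 54 to 71 members were lower under each alternative scaling, filter, tool or background treatment, 52 to 66 when 1 library was left out, and 0 at 2-fold. Without a filter the median of all genes moved to -0.78 for anti-B7-H3 against isotype control, and by DESeq2 to -1.08, so the members' medians are to be read against it. A fit with the replicate number as a block called 77 members higher for anti-B7-H3 against isotype control and 64 lower for combination against anti-B7-H3. Libraries of the same number did not deviate together (correlations -0.036 to 0.043), so the numbers are not taken to pair the libraries. The cause of each change below was not tested, and the share of all genes called was not counted under the settings below. Counts without a filter and from DESeq2 are over all 83 members, and those without satellite-like genes over 81. Leaving out 1 library at a time gave 0 to 2 members lower for anti-B7-H3 against isotype control. It gave -0.029 to 0.21 for Rpl39 in anti-PD1 against isotype control, -0.15 to 0.16 for Rpl7l1 in combination against isotype control, -0.15 to 0.08 for Rps27 in anti-PD1 against isotype control and -0.16 to 0.096 for Rps27 in combination against isotype control. A DESeq2 Wald test gave 3 lower for anti-B7-H3 against isotype control, 4 lower for anti-PD1 against isotype control, 5 lower for combination against isotype control, 1 higher for combination against anti-B7-H3, 3 lower for combination against anti-PD1 and 2 lower for anti-B7-H3 against anti-PD1. Subtracting background gave 8 lower for anti-B7-H3 against isotype control, 14 higher and 14 lower for anti-PD1 against isotype control, 35 higher and 15 lower for combination against isotype control, 37 higher and 6 lower for combination against anti-PD1, 3 lower for anti-B7-H3 against anti-PD1 and 46 in the interaction. It also turned the sign for anti-B7-H3 against isotype control Rpl41 -0.11, Rpl7l1 -0.25, Rps2 -0.45, Rps26 -0.21 and Rps6 -0.14. For anti-PD1 against isotype control it turned Rpl10 -0.23, Rpl11 -0.14, Rpl22 -0.05, Rpl26 -0.30, Rpl39 -0.42, Rpl5 -0.008, Rpl7 -0.03, Rps2 -0.28, Rps26 -0.17, Rps6 -0.20 and Rpsa -0.019. For combination against isotype control it turned Rps2 -0.38, Rps26 -0.32, Rps27l -0.17, Rps6 -0.23 and Rpsa -0.17. The large subunit median of anti-PD1 against isotype control became -0.016. Subtracting background for each pseudogene copy, an alternative chosen after seeing the data, gave 0 lower for anti-PD1 against isotype control, 1 lower for combination against isotype control, 44 higher for combination against anti-PD1 and 2 lower for anti-B7-H3 against anti-PD1. It also turned the sign for anti-B7-H3 against isotype control Rpl21 0.35, Rpl29 2.02, Rpl41 -0.12 and Rps26 -0.16. For anti-PD1 against isotype control it turned Rpl21 0.016, Rpl29 1.55, Rpl7l1 2.04, Rps26 -0.12, Rps27 0.079 and Rps27l 0.52. For combination against isotype control it turned Rpl21 0.11, Rpl29 1.503, Rpl7l1 2.43 and Rps26 -0.27. Using no filter gave 3 lower for anti-B7-H3 against isotype control, 4 lower for anti-PD1 against isotype control, 4 lower for combination against isotype control, 1 higher for combination against anti-B7-H3, 2 lower for combination against anti-PD1 and 3 lower for anti-B7-H3 against anti-PD1. It also turned the sign for anti-B7-H3 against isotype control Rpl21 0.22 and Rpl29 0.21. For anti-PD1 against isotype control it turned Rps27 0.14. For combination against isotype control it turned Rpl7l1 0.28 and Rps27 0.25. Calling only at 2-fold or more gave 50 higher for anti-B7-H3 against isotype control, 2 higher and 0 lower for anti-PD1 against isotype control, 31 higher and 0 lower for combination against isotype control, 0 lower for combination against anti-B7-H3, 1 higher and 0 lower for combination against anti-PD1, 4 higher for anti-B7-H3 against anti-PD1 and 15 in the interaction. Leaving out satellite-like genes gave 1 lower for anti-B7-H3 against isotype control, 1 higher for combination against anti-B7-H3, 2 lower for combination against anti-PD1 and 1 lower for anti-B7-H3 against anti-PD1. It also turned the sign for anti-B7-H3 against isotype control Rpl21 0.15 and Rpl29 0.14. For anti-PD1 against isotype control it turned Rps27 0.16. For combination against isotype control it turned Rpl7l1 0.26 and Rps27 0.23. Keeping genes at 5 times background or more gave 2 lower for anti-B7-H3 against isotype control, 7 lower for anti-PD1 against isotype control and 4 lower for combination against isotype control. It also turned the sign for anti-B7-H3 against isotype control Rpl7l1 -0.049. For anti-PD1 against isotype control it turned Rpl26 -0.058, Rpl39 -0.21 and Rps2 -0.027. For combination against isotype control it turned Rps2 -0.016. Allowing for effective length gave 2 lower for anti-B7-H3 against isotype control. It also turned the sign for anti-PD1 against isotype control Rps27 0.013. For combination against isotype control it turned Rps27 0.021. Fitting only the groups compared turned the sign for anti-PD1 against isotype control Rps27 0.027. As a share with background subtracted, large subunit genes held 1.68% with anti-PD1 and 0.987% with isotype control, and small subunit genes held 1.6% in the combination, 1.21% with anti-PD1 and 0.673% with isotype control. As a share per effective length, large subunit genes held 4.85% in the combination, 5.76% with anti-B7-H3, 2.83% with anti-PD1 and 1.06% with isotype control, and small subunit genes held 3.58% in the combination, 4.47% with anti-B7-H3, 2.04% with anti-PD1 and 0.699% with isotype control. As a share of all matched reads, large subunit genes held 1.47% in the combination, 0.419% with anti-PD1 and 0.0536% with isotype control, and small subunit genes held 1.08% in the combination, 0.303% with anti-PD1 and 0.0365% with isotype control.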
